A study of Arabidopsis thaliana with 12 samples.

Results

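The ATG8 genes of Arabidopsis thaliana were compared between parts of the early embryo, and between cellular and nuclear RNA. The set is 8 genes, each read by 1 probe set that the platform's annotation ties to that gene alone, out of 13356 genes that have such a probe set. They are ATG8A (listed in the gene table as APG8A, locus AT4G21980), ATG8B (AT4G04620), ATG8C (AT1G62040), ATG8D (AT2G05630), ATG8E (AT2G45170), ATG8F (AT4G16520), ATG8H (AT3G06420) and AT3G15580, which the gene table lists as APG8H with the synonym ATG8I and which is called ATG8I here. Members were chosen by symbol, with earlier results of these data known. The array also reads ATG8G (AT3G60640), the ninth gene of the family, by 1 probe set of its own. ATG8G is outside the chosen set, and its values stand beside those of the members.

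ATG8 proteins are small ubiquitin-like proteins that become anchored to lipid on the growing autophagosome, the double membrane that engulfs cell contents and carries them to the vacuole. Proteases of the ATG4 type trim their C terminus, ATG7 and ATG3 activate and transfer them, and a complex of ATG12, ATG5 and ATG16 completes the attachment; on the membrane they dock the receptors that bring cargo. In Arabidopsis the family falls into the related genes ATG8A to ATG8D, then ATG8E to ATG8G, and the more distant ATG8H and ATG8I, whose proteins already end at the glycine that trimming exposes in the others. The suspensor, the file of cells that joins the embryo to the mother tissue, is short-lived and is removed by programmed cell death, which in Norway spruce embryos requires autophagy.

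Transcripts were measured on Affymetrix ATH1 arrays in plants of ecotype Col-0, with no treatment or mutation named in any group. Proembryo, suspensor and whole-embryo nuclei (3 arrays each) came from embryos of 2 to 16 cells in ovules fixed with 0.1% paraformaldehyde, sorted by flow cytometry with tissue-specific marker lines whose promoters the labels do not give. For the last group, also of 3 arrays, RNA was taken from whole-embryo cells at the stage of 8 to 32 cells, after the embryos were squeezed out and washed with no fixation step named, so that stage, fixation and extraction cannot be told apart from cells against nuclei. The replicates are called biological in the labels, with no word on whether they come from different plants, so p-values reflect only how far these arrays spread.

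Technical measures and markers of the arrays were tabulated by group. The mean log2 signal of the hybridisation controls was 11.39, 12.99 and 13.88 on suspensor replicates 1, 2 and 3, against 11.66 to 12.65 in proembryo nuclei, 11.82 to 12.94 in whole-embryo nuclei and 11.55 to 11.82 in cells. The suspensor range enclosed those of the other nuclei (exact two-sided permutation p = 0.5 against proembryo and 0.6 against whole-embryo nuclei). For actin, the 3' over 5' signal on the log2 scale was 3.34 to 3.86 in suspensor nuclei and 4.46 to 4.72 in proembryo nuclei (exact two-sided permutation p = 0.1, the smallest that 3 arrays against 3 allow). The same ratio for ubiquitin had the opposite sign, with means of 5.15 in suspensor and 4.54 in proembryo nuclei (exact permutation p = 0.4), and that for GAPDH had means of 7.13 and 7.41 (exact permutation p = 0.7). None of the 7 listed suspensor markers and 2 of the 7 listed proembryo markers (BBM and PHV) had a named probe set. BBM read 193 to 271 intensity units in proembryo and 76.3 to 123 in suspensor nuclei, and PHV read 54.95 to 361 and 97.02 to 188. Of other seed tissues, the 1 named seed coat gene of 7 listed, BAN, read 4435 to 7835 units in proembryo, 7828 to 11449 in suspensor and 6403 to 7493 in whole-embryo nuclei, and 4780 to 16697 in cells. BAN stood above the 98.8th percentile of probe sets on every array. Its suspensor arrays lay above those of whole-embryo nuclei (log2 difference 0.40, SE 0.245), as for 9.16% of probe sets. The 2 named endosperm genes of 6 listed, AGL62 and AGL80, summed to 140.1 to 196 units in proembryo, 219 to 289 in suspensor and 159.8 to 219.7 in whole-embryo nuclei, and 229 to 248 in cells. The part of the 3' over 5' ratios and of the marker levels in the ATG8 values was not tested; values with the hybridisation controls as a covariate are given further on. Fewer nuclei of a type cannot be told apart from less RNA per nucleus.

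In ATG8A to ATG8D, ATG8A and ATG8D set suspensor apart from proembryo nuclei on every array, ATG8B did so only in its mean, and ATG8C had the opposite sign. ATG8A read 221, 277 and 253 intensity units on suspensor replicates 1, 2 and 3 and 134, 158 and 100.2 on those of proembryo nuclei. All 3 suspensor arrays lay above all others of the series for this gene, since whole-embryo nuclei read 155, 154 and 125 and cells 201, 182 and 136. The log2 difference of suspensor from proembryo nuclei was 0.88 (SE 0.29, n = 3 and 3, 1.84-fold), with a limma adjusted p of 0.129 over all probe sets.

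ATG8D read 911, 1036 and 1486 units in suspensor nuclei and 731, 641 and 605 in proembryo nuclei. It read 824, 917 and 959 in whole-embryo nuclei and 1204, 1042 and 1310.2 in cells. Proembryo nuclei were the lowest group, without overlap with any other, while the suspensor range overlapped those of whole-embryo nuclei and cells. The log2 difference of suspensor from proembryo nuclei was 0.75 (SE 0.245, limma adjusted p = 0.123, 1.69-fold). Suspensor replicate 3, the array with the strongest hybridisation controls, also had the highest ATG8D value, and without it the log2 difference was 0.55.

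ATG8B read 719, 591 and 543 units in suspensor and 625, 429 and 349 in proembryo nuclei, and its ranges overlapped. Whole-embryo nuclei read 379, 423 and 801, so that replicate 3 alone lay above every suspensor array. ATG8C read 595, 1264 and 271 units in suspensor, 1367, 526 and 1014 in proembryo and 821, 1487 and 942 in whole-embryo nuclei, and on the log2 scale it had the largest SD of the 8 members in suspensor and in proembryo nuclei. Its log2 difference of suspensor from proembryo nuclei was -0.59 (SE 0.435), with an interval from -1.51 to 0.32, and it was -0.053 without suspensor replicate 3 and -1.13 without suspensor replicate 2.

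In ATG8E to ATG8G, the means of ATG8E and ATG8F were highest in suspensor nuclei and that of ATG8G was not. ATG8E read 471, 189 and 259.8 units in suspensor nuclei, 215, 119 and 135 in proembryo nuclei and 124, 84.9 and 150.1 in whole-embryo nuclei. Suspensor replicate 2 lay below proembryo replicate 1, so these groups overlapped, but every suspensor array lay above every whole-embryo nuclei array. The log2 difference of suspensor from proembryo nuclei was 0.85 (SE 0.356, limma adjusted p = 0.2495) and 0.50 without suspensor replicate 1.

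ATG8F read 3577, 3279 and 2115 units in suspensor nuclei and 2222, 1327 and 1962 in proembryo nuclei, where replicate 1 exceeded suspensor replicate 3. Whole-embryo nuclei read 1957, 1665 and 1748, all below the suspensor arrays. Its log2 difference of suspensor from proembryo nuclei was 0.70 (SE 0.26, limma adjusted p = 0.184). ATG8G, outside the set, read 317, 266 and 278 units in suspensor nuclei and 478, 161 and 397 in proembryo nuclei. Its log2 difference was -0.13 (SE 0.338), with an interval from -0.84 to 0.58, so that neither direction was resolved.

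The remaining members, ATG8H and ATG8I, differed from each other. ATG8H read 182, 215 and 209 units in suspensor nuclei. It read 114, 37.5 and 82.1 in proembryo nuclei, 62.2, 59.4 and 125 in whole-embryo nuclei, and 70.02, 101 and 37.7 in cells. Every suspensor array thus lay above the 9 arrays of the other groups. The log2 difference of suspensor from proembryo nuclei was 1.31 (SE 0.405, limma adjusted p = 0.108, 2.47-fold). Because only 1 array each of proembryo and whole-embryo nuclei lay above its array's median for ATG8H, the gene entered the fit through the suspensor arrays and had to be high there. ATG8I read 2708, 1971 and 2315 units in suspensor, 2163, 1899.9 and 2399 in proembryo and 1863, 1771 and 2935 in whole-embryo nuclei. Its log2 difference of suspensor from proembryo nuclei was 0.11 (SE 0.246), with an interval from -0.41 to 0.63.

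**Figure D1:**
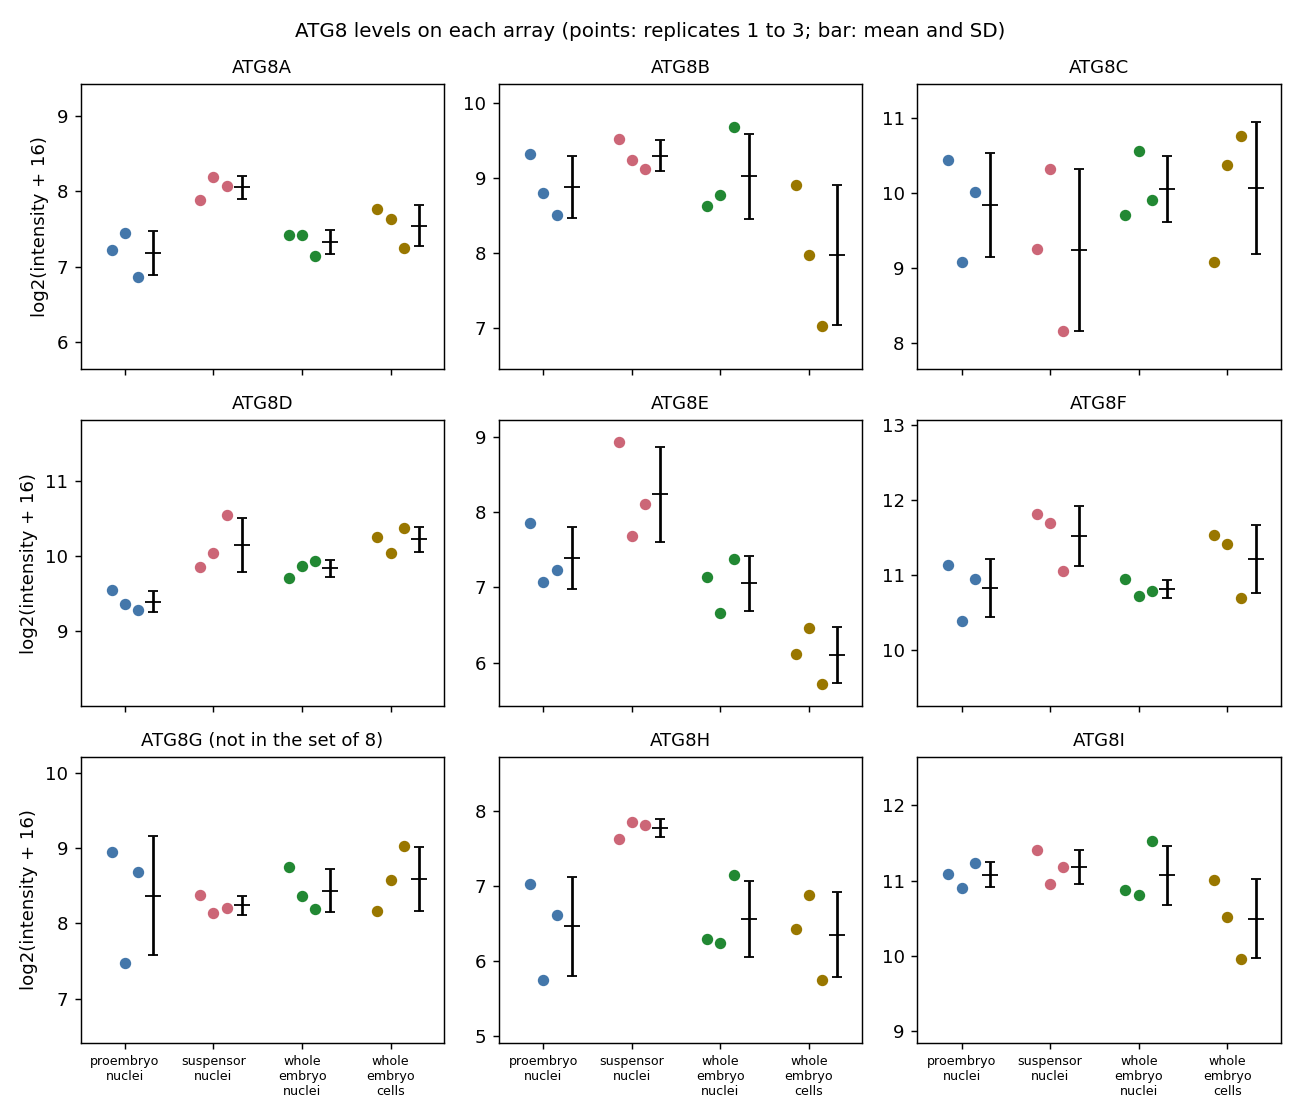
Levels of the ATG8 genes as log2(intensity + 16) on the 12 arrays, 1 panel a gene; points are the 3 replicates of each group in order and the bar beside them is the mean with its SD. The suspensor points of ATG8A and ATG8H lie above all others in their panels, those of ATG8C spread from 8.16 to 10.32, and the cell points of ATG8E lie below all others. Panels have the same span but different offsets, since levels of different probe sets are not comparable.

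Counted over the set, 7 of the 8 members had a positive log2 difference of suspensor from proembryo nuclei, with a median of 0.72, where 50.9% of the 12787 probe sets tested had a positive one and their median was 0.01. Past the threshold of an adjusted p under 0.05 were 0 of the 8 members by limma, where 2.03% of all probe sets passed. At an unadjusted p under 0.05 stood 5 members (ATG8A, ATG8D, ATG8E, ATG8F and ATG8H), all higher in the suspensor, against 7.28% of all probe sets in that direction. For 3 members all suspensor arrays lay above all proembryo arrays, against 9.61% of probe sets. Since ATG8H had to be high in the suspensor to be tested, the counts without it are 6 of 7 positive, 4 at an unadjusted p under 0.05 and 2 without overlap, with a median of 0.70. With ATG8G added, 7 of 9 genes were positive and the median was 0.70. No member passed under any of the alternatives run for this comparison, where the lowest adjusted p of a member was 0.0569 (ATG8A, with probe sets required above the median on every array).

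**Figure D2:**
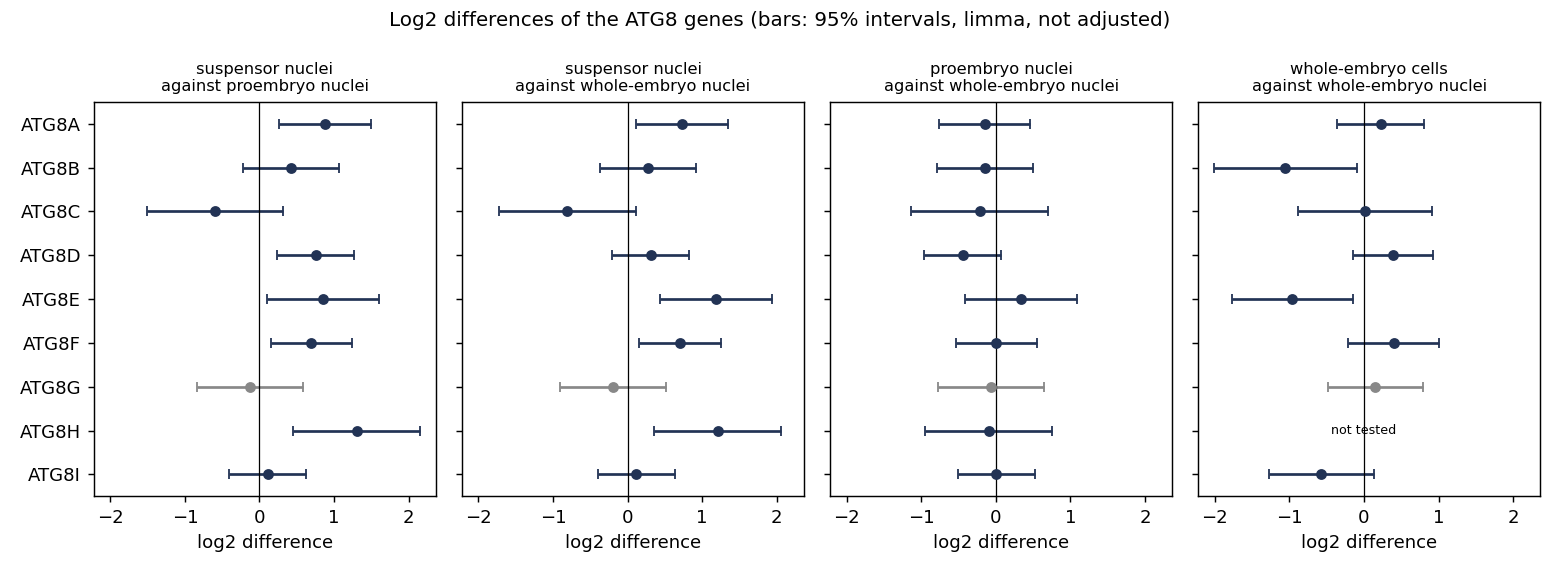
Log2 differences of each ATG8 gene in the 4 comparisons, with 95% intervals from limma that are not adjusted for the number of genes; grey marks ATG8G. In both comparisons with suspensor nuclei, the intervals of ATG8A, ATG8E, ATG8F and ATG8H lie above 0, and in the third panel every interval includes 0.

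Next came suspensor against whole-embryo nuclei. The suspensor arrays are the same, so this is not a second observation of them. ATG8H had a log2 difference of 1.21 (SE 0.405, limma adjusted p = 0.165), ATG8E of 1.18 (SE 0.356, adjusted p = 0.115), ATG8A of 0.73 (SE 0.29, adjusted p = 0.251) and ATG8F of 0.70 (SE 0.26, adjusted p = 0.212). These 4 members had suspensor arrays wholly above those of whole-embryo nuclei, against 9.16% of probe sets, and an unadjusted p under 0.05, against 5.84% in that direction. By limma 0 of the 8 members passed the adjusted threshold, where 1.56% of probe sets did, and 7 were above 0, as were 49.6% of probe sets. The median over the 8 members was 0.51. With ATG8G added, 7 of 9 genes were above 0 and the median was 0.31. ATG8H had to be high in the suspensor here too, and without it 6 of 7 were above 0, 3 had an unadjusted p under 0.05, 3 did not overlap, and the median was 0.31. ATG8D stood at 0.31 (interval -0.20 to 0.83), ATG8B at 0.27 (-0.37 to 0.92), ATG8I at 0.12 (-0.40 to 0.63), ATG8C at -0.81 (-1.73 to 0.11) and ATG8G at -0.20 (-0.91 to 0.52). Single arrays moved several of these: ATG8D stood at 0.11 without suspensor replicate 3, ATG8C at -0.27 without suspensor replicate 3 and -1.35 without suspensor replicate 2. ATG8B stood at 0.16 without suspensor replicate 1, and at 0.073, 0.15 and 0.60 without whole-embryo nuclei replicate 1, 2 and 3. ATG8E passed in 1 of its 20 alternatives, the filter that keeps only probe sets above the median on every array (adjusted p = 0.0454); its adjusted p ran up to 0.384 in the others.

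Proembryo and whole-embryo nuclei were close for every member. Log2 differences ran from -0.44 (ATG8D) to 0.33 (ATG8E) with a median of -0.12 over the 8 members, beside -0.01 over all probe sets. By limma 0 members and 0% of all probe sets passed, and 0 members had an unadjusted p under 0.05, against 3.14% of probe sets. For ATG8D alone did the arrays not overlap, with proembryo nuclei lower (SE 0.245, interval -0.96 to 0.07), a pattern that 4.38% of probe sets had in that direction. The intervals of the other members reached at least 0.46 log2 units on each side of 0 except for ATG8E (-0.42 to 1.08), so that modest differences were not resolved.

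**Figure D3:**
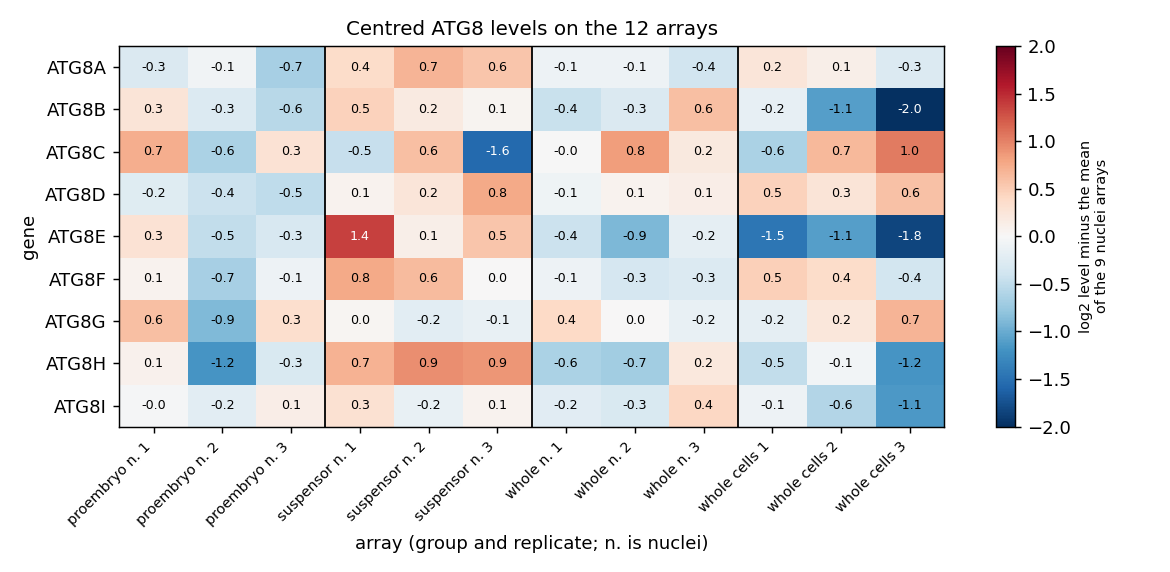
Each ATG8 gene on each of the 12 arrays, as the log2 level minus that gene's mean over the 9 nuclei arrays (colour and printed value); vertical lines part the groups. ATG8A, ATG8B, ATG8D, ATG8E, ATG8F and ATG8H are above 0 on all 3 suspensor arrays, ATG8F only marginally on replicate 3. ATG8C is below 0 on 2 of the 3, and ATG8B, ATG8E, ATG8H and ATG8I are below 0 on all 3 cell arrays.

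Whole-embryo cells were compared with whole-embryo nuclei to set cellular against nuclear RNA. ATG8E read 53.05, 72.3 and 36.6 units in cells, below each of the 9 nuclei arrays. Its log2 difference from whole-embryo nuclei was -0.96 (SE 0.371, limma adjusted p = 0.143). It was above the median on none of the cell arrays and on all 3 of whole-embryo nuclei, so it entered this fit through nuclei and had to be higher there; 15.2% of all probe sets were lower in cells without overlap. ATG8B read 463, 235 and 116 units in cells, a log2 difference of -1.05 (SE 0.438, adjusted p = 0.172). Cell replicate 1 lay within the range of whole-embryo nuclei, and without it the difference was -1.52 with an adjusted p of 0.0245 (0.0245 to 0.72 over the alternatives).

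No member tested was called in this comparison, ATG8E and ATG8B included. ATG8I read 2037, 1455 and 982 units in cells, a log2 difference of -0.57 (SE 0.322, adjusted p = 0.307). ATG8F read 2943, 2711 and 1639 units in cells (0.40, SE 0.281) and ATG8C 525, 1308 and 1714 (0.01, SE 0.408). ATG8D stood at 0.39 (SE 0.243, adjusted p = 0.36), with all cell arrays above all whole-embryo nuclei arrays, against 13.4% of probe sets in that direction, and ATG8A at 0.22 (SE 0.265). ATG8G read 271, 366 and 506 units in cells (0.15, SE 0.292). ATG8H was above the median on too few of these 6 arrays to be tested. By limma 0 of the 7 members tested passed, where 6.77% of 11867 probe sets did, and 2 members, ATG8B and ATG8E, had an unadjusted p under 0.05, both lower in cells, against 12.5% of probe sets in that direction. The median over the 7 was 0.01 and that over all probe sets 0.01. Without ATG8E, which had to differ, 1 of 6 members had an unadjusted p under 0.05 and the median was 0.12. Hybridisation controls differed between these groups without overlap (exact two-sided permutation p = 0.1).

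The order of the 4 groups was not the same for all genes. Suspensor nuclei had the highest mean for ATG8A, ATG8B, ATG8E, ATG8F, ATG8H and ATG8I, and cells for ATG8C, ATG8D and ATG8G. Cells had the lowest mean for ATG8B, ATG8E, ATG8H and ATG8I, proembryo nuclei for ATG8A and ATG8D, whole-embryo nuclei for ATG8F and suspensor nuclei for ATG8C and ATG8G. Neighbours in the order had arrays that did not overlap in 4 instances: suspensor nuclei over cells for ATG8A, suspensor over whole-embryo nuclei for ATG8H, whole-embryo over proembryo nuclei for ATG8D, and whole-embryo nuclei over cells for ATG8E. All other neighbours overlapped, including every pair for ATG8B, ATG8C, ATG8F, ATG8G and ATG8I. Without overlap, 9.16% of probe sets were higher in suspensor and 4.38% lower in proembryo than in whole-embryo nuclei, and 15.2% were lower in cells. These shares are for fixed pairs of groups. No share was computed for suspensor nuclei over cells, nor for neighbours in the order of the 4 groups. Because of the filter, ATG8H had to be high in suspensor nuclei to be tested, and ATG8E had to be higher in whole-embryo nuclei than in cells.

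Correlations between members were taken over the 9 nuclei arrays, so the differences between groups given above enter them. Of the 28 pairs of members, 21 had a positive Pearson correlation, from -0.43 to 0.80 with a median of 0.46. No filter was applied to these pairs. ATG8H, which had to be high in the suspensor to be tested, took part in the highest, with ATG8F. Its correlations ran from 0.52 to 0.80 with the members other than ATG8C and stood at -0.20 with ATG8C. ATG8C had 6 of its 7 correlations below 0. It was set apart because of them, so the median of 0.58 over the 21 pairs without it is raised by that choice. No share of positive pairs among other probe sets was computed. These arrays share groups and scaling, so the correlations describe them and no more. The correlation with the hybridisation control level was 0.66 for ATG8D (rho 0.63), 0.45 for ATG8A (rho 0.45) and 0.35 for ATG8H (rho 0.38), -0.51 for ATG8C (rho -0.32) and within 0.22 of 0 for ATG8B, ATG8E, ATG8F and ATG8I. With that level as a covariate, the log2 differences of suspensor from proembryo nuclei were 1.26 for ATG8H, 0.98 for ATG8E, 0.86 for ATG8F, 0.82 for ATG8A, 0.63 for ATG8D, 0.40 for ATG8B, 0.12 for ATG8I and -0.34 for ATG8C, which stood at -0.59 without it.

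The mean of the 8 centred profiles was 0.44, 0.40 and 0.17 log2 units on suspensor replicates 1, 2 and 3, 0.11, -0.49 and -0.26 in proembryo nuclei and -0.25, -0.22 and 0.09 in whole-embryo nuclei. ATG8H, which had to be high in the suspensor to be kept, is part of this mean. Neither the mean nor the likeness to it was computed without ATG8H. Among 962 other probe sets with 1 gene and a symbol, the most similar was ARD4, of a family of enzymes in methionine salvage, with a Pearson r of 0.95 (rho 0.97) over these 9 arrays. ARD4 read 669.9, 639 and 460.2 units in suspensor, 397, 304 and 362 in proembryo and 356, 366 and 438 in whole-embryo nuclei. Next were scpl48, a serine carboxypeptidase-like gene (r = 0.89, rho 0.83), and GH9B7, of a family of glucan-cleaving enzymes (r = 0.89, rho 0.90). Over all 12 arrays r was 0.76, 0.75 and 0.81 for the 3 genes.

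Part of the rest of the autophagy pathway was read, from a list of 50 further genes. Of these, 15 had a named probe set and 12 were bright enough to test. A named probe set was missing for the 10 listed membrane delivery genes, the 2 vacuole fusion genes, ATG5, ATG7 and TOR. The 12 include RAPTOR2 and RAPTOR1, listed as nutrient signalling upstream of autophagy. None of the genes tested passed by limma in any comparison. Against proembryo nuclei, the 12 had a median log2 difference of 0.06 in the suspensor, with 8 above 0 and 4 below, and 2 with an unadjusted p under 0.05, both lower and both without overlap, where 8.74% and 9.66% of all probe sets were so in that direction. ATG3, the enzyme that transfers ATG8 to lipid, read 203, 198 and 248 units in suspensor and 203, 226 and 205 in proembryo nuclei, a log2 difference of 0.02 (SE 0.27, interval -0.54 to 0.59). The gene with the synonym ATG101 (AT5G66930), a partner of the kinase that starts autophagy, stood at 0.12 (SE 0.41). RAPTOR2 and RAPTOR1 encode partners of TOR, the kinase that holds autophagy down when nutrients are ample. RAPTOR2 read 98.5, 116 and 76.9 units in suspensor and 211, 148 and 188 in proembryo nuclei, without overlap, a log2 difference of -0.81 (SE 0.305, adjusted p = 0.186), and RAPTOR1 stood at 0.31 (SE 0.347).

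Some listed genes have only a locus tag in the gene table, and no name or role is given to them here. Of these, AT3G43230 had a log2 difference of suspensor from proembryo nuclei of -0.79 (SE 0.279, limma adjusted p = 0.158) and AT2G32760 of 0.60 (SE 0.348). AT1G77890 stood at 1.43 (SE 0.795, limma adjusted p = 0.393). It read 232, 253 and 18.8 units on suspensor replicates 1, 2 and 3 and 87.98, 8.39 and 30.6 on those of proembryo nuclei. Its second probe set lay below the median on every array and was not tested. Against whole-embryo nuclei, RAPTOR2 had the smallest p in the suspensor, at -0.66 (SE 0.305, adjusted p = 0.329), and AT3G43230 in proembryo nuclei, at 0.63 (SE 0.279, adjusted p = 1). In cells against whole-embryo nuclei the smallest p values belonged to RAPTOR1 (-0.68, SE 0.295, adjusted p = 0.187), AT2G32760 (0.60, SE 0.261), AT3G61960 (-0.65, SE 0.334) and AT5G50230 (-0.39, SE 0.268), and ATG3 stood at 0.24 (SE 0.253).

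**Figure D4:**
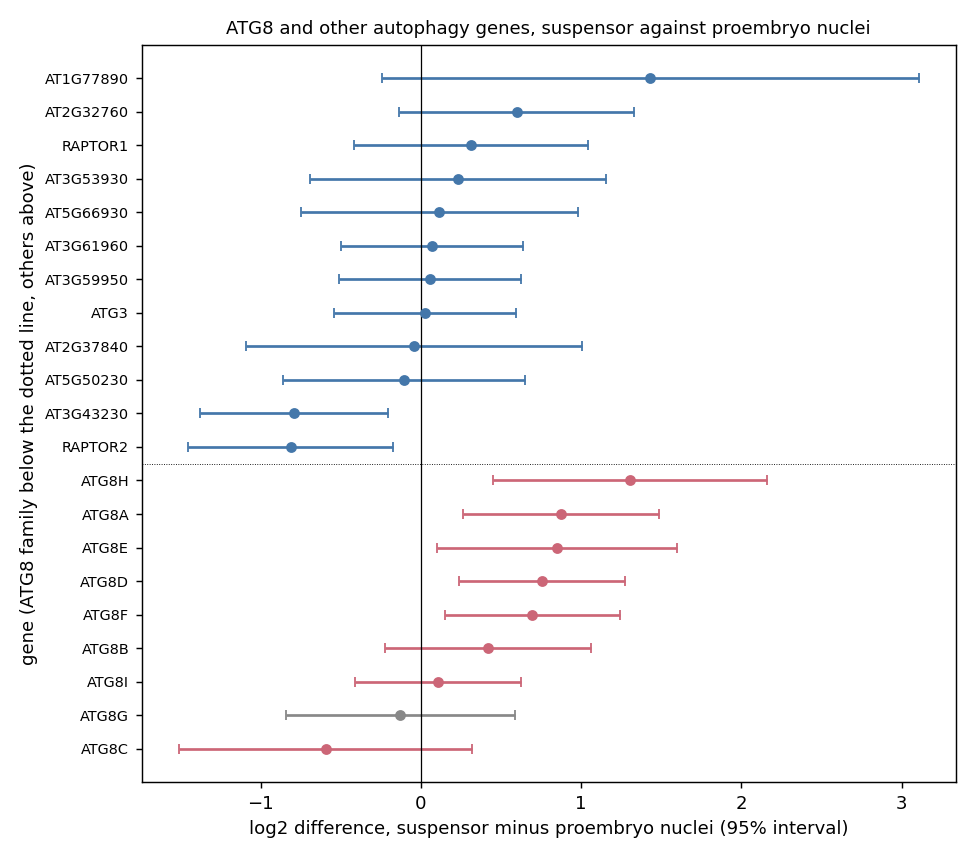
Log2 differences of suspensor from proembryo nuclei with 95% intervals, not adjusted, for the ATG8 genes (red; ATG8G grey) and the 12 other autophagy genes tested (blue), each group sorted by value; AT5G66930 has the synonym ATG101. In red, 5 intervals lie above 0; in blue, those of RAPTOR2 and AT3G43230 lie below 0 and ATG3 stands at 0.02.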

How the data were processed

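Per the labels' protocols, RNA was amplified in a single round, labelled with biotin and hybridised to 12 ATH1 arrays. The authors deposited 1 linear intensity value per probe set and array; the submitters' processing notes list affy 1.32.1 and MAS5, without saying what each did. The mean after trimming 2% at each end was 200.02 on every array, and nothing was rescaled. Names came from the platform annotation, updated by gene identifier in a table of assembly TAIR10.1. Values were analysed as log2(intensity + 16), a scale that understates changes of dim genes. Of 22746 non-control probe sets, those above the array's median on 3 or more of the fitted arrays were kept. R 4.3.3 with limma 3.58.1 gave the tests (intensity trend, Benjamini-Hochberg over all probe sets kept, threshold 0.05): the 9 nuclei arrays in 1 fit, cells and whole-embryo nuclei in another. Python 3.11.15 with pandas 2.3.3 made tables and figures. The number of arrays, 3 a group, limits the precision.

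All ATG8 members are named. Of the other autophagy genes, those with the smallest p values are given, 4 in suspensor against proembryo nuclei and in cells against nuclei and 1 elsewhere. So are all that the gene table names by symbol or synonym, and these were chosen after their values were seen. For likeness, the 3 genes with the highest r are given. The members and lists were chosen with earlier results of these data known. Probe sequences were not used, so cross-hybridisation among these related genes was not checked, and no sequence of the members is shown. Alternatives changed the scaling, pseudocount, filter, trend, arrays in the fit, a replicate block, the hybridisation control level as a covariate, and left out each array in turn. Equal replicate numbers did not pair the arrays: 1 of 9 correlations of same-numbered deviations among nuclei was over 0.1.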

Additional observations from a re-analysis of the deposited data

How the results depend on the processing

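Across 660 values of the 9 ATG8 genes under alternatives, 627 kept their sign and their side of the threshold, 2 passed it and 31 changed sign, all of the latter differences that had not passed. ATG8 members past the threshold numbered 0 throughout, except 1 in suspensor against whole-embryo nuclei with the filter on every array (ATG8E) and 0 to 1 in cells against whole-embryo nuclei as arrays were left out (ATG8B without cell replicate 1). The causes were not tested.

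Signs changed with the hybridisation controls as a covariate for ATG8G in suspensor against proembryo nuclei (0.014), ATG8F in proembryo against whole-embryo nuclei (-0.050), and ATG8A (-0.029) and ATG8C (-0.14) in cells. With quantile normalization ATG8I stood at -0.0078 in proembryo against whole-embryo nuclei and ATG8C at -0.054 in cells. As arrays were left out, ATG8G ran from -0.58 to 0.16 and ATG8I from -0.0057 to 0.22 in suspensor against proembryo nuclei, and ATG8I from -0.017 to 0.34 in suspensor against whole-embryo nuclei. In proembryo against whole-embryo nuclei the ranges were -0.28 to 0.010 for ATG8A, -0.37 to 0.18 for ATG8B, -0.51 to 0.17 for ATG8C, -0.14 to 0.22 for ATG8F, -0.36 to 0.38 for ATG8G, -0.38 to 0.26 for ATG8H and -0.12 to 0.24 for ATG8I. In cells they were -0.33 to 0.51 for ATG8C and -0.064 to 0.37 for ATG8G.

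Counts over all probe sets moved more. For suspensor against proembryo nuclei the 260 became 62 with median centring, 167 without the filter, 17 without the trend, 141 with all 12 arrays, 155 with only the arrays compared and 163 with the covariate, and 85 (without proembryo replicate 3) to 421 (without suspensor replicate 1) as arrays were left out. For suspensor against whole-embryo nuclei the 199 became 49, 104, 9 and 55 under the first 4 of these, and 27 (without whole-embryo nuclei replicate 2) to 309 (without suspensor replicate 1). For cells the 803 became 462 without the filter, 419 with the filter on every array, 8 with the covariate, and 205 (without whole-embryo nuclei replicate 1) to 1287 (without cell replicate 1); for proembryo against whole-embryo nuclei the count was 0 to 1, the latter without proembryo replicate 2. The replicate block kept every member's difference and call; with it ATG8H had an adjusted p of 0.113 in suspensor against proembryo nuclei. Of the likeness values, ARD4 stood at 0.76, scpl48 at 0.75 and GH9B7 at 0.81 over all 12 arrays, scpl48 at 0.81 with median centring and GH9B7 at 0.88 with a pseudocount of 64, and were then no longer among the 3 highest. ATG8H could not be tested with the filter on every array, nor with only the arrays compared in proembryo against whole-embryo nuclei; ATG8E could not in cells with that filter or without any 1 nuclei array. Of the members, ATG8A, ATG8E and ATG8H read nearest the array medians.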
